A study of Danio rerio with 12 samples.

Results

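The hearts of 36-month-old zebrafish (Danio rerio) were compared with those of 24-month-old fish, the last step of a natural ageing series. The comparison held 6 of the 12 libraries of the study, 3 at 36 months and 3 at 24 months, and the remaining libraries came from fish of 6 and 12 months. The genes examined were those with a mean of at least 1 FPKM over these 6 libraries, 16129 of the 50640 in the tables. FPKM is fragments per kilobase of gene, scaled for the size of the library. All fish are given the same tissue, heart, and were kept under standard conditions with no treatment. No genotype, strain, sex or time of collection is stated. The labels do not say that replicates came from separate fish, so p-values measure the spread between these samples, which may be technical.

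The zebrafish heart has a single atrium and a single ventricle of cardiac muscle, lined by endocardium and covered by epicardium. It keeps the capacity to regrow muscle after injury in adult life, unlike the adult mammalian heart. Old hearts in vertebrates are known for altered stress responses, metabolism, matrix and immune cell content, and peripheral tissues also carry their own circadian clock.

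The 6 libraries held 7333060 to 8673977 reads in genes at 36 months and 7399828 to 10329722 at 24 months. On the first principal component of these libraries, which held 40.4% of the variance, 36-month libraries lay at 27.8 to 45.8 and 24-month libraries at -37.1 to -32.6. Genes of the mitochondrial genome took 3.88% to 4.98% of reads at 36 months and 4.61% to 5.57% at 24 months. Of the markers of heart muscle, myh6, an atrial myosin heavy chain, had 975, 795 and 1712 FPKM at 36 months, against 1300.5, 977 and 1375 FPKM at 24 months. The natriuretic peptide gene nppa had 4381, 3119.9 and 4057 FPKM at 36 months, against 4698, 4148 and 3884 FPKM at 24 months, and both genes overlapped between the ages. Several other defining markers were at or near 0 in all 6 libraries, among them vmhc (at most 0.108 FPKM), tnnt2a (at most 0.346) and nppb (at most 0.136) of heart muscle and cdh5 and tie1 of endothelium (listed at 0). Many annotated genes share their position with a locus without a name, and how the reads of such a stretch were counted is not given in the sources used here. These are bulk libraries, in which fewer cells of a type and less RNA per cell cannot be told apart.

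Differences below are of log2(FPKM + 1), 36 minus 24 months, with their standard error, and understate the change of genes at low levels. A gene was called when its limma p, adjusted by Benjamini-Hochberg over the 16129 genes, was under 0.05. Of these genes 243 were called (1.51%), 116 higher at 36 months (0.719%) and 127 lower (0.787%). The protein-coding genes gave 118 calls of 9908 tested (1.19%), 40 higher and 78 lower. Loci without a name, which the tables list by number only, gave 121 of 5667 (2.14%), 73 of them higher and 48 lower. The unadjusted p was below 0.05 for 1386 genes with a higher (8.59%) and 1437 with a lower level (8.91%). The median difference over all genes was 0.02, and 8388 of the 16129 were positive. For all 243 called genes the 3 values at 36 months lay outside the range at 24 months, as they did for 25.6% of all genes tested. Of the 116 genes called higher, 71 had a mean under 1 FPKM at 24 months and entered the test through their level at 36 months, and 28 of the 127 called lower entered through 24 months. Among the called genes named below, igl3v3, dicp1.1, CT737162.2, opn9, trim54 and lss entered through 36 months alone, and slc14a2, ugt2a6, map1aa and itga10 through 24 months alone. So did the unnamed loci 552, 553, 3219, 12075, 15684, 15685, 19560, 19562, 29064, 29249 and 31226 through 36 months, and 4496 and 29271 through 24 months. At the limit itself, angpt2b was just inside with a mean of 1.0 FPKM and nsun3 just outside with 0.997.

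**Figure D1:**
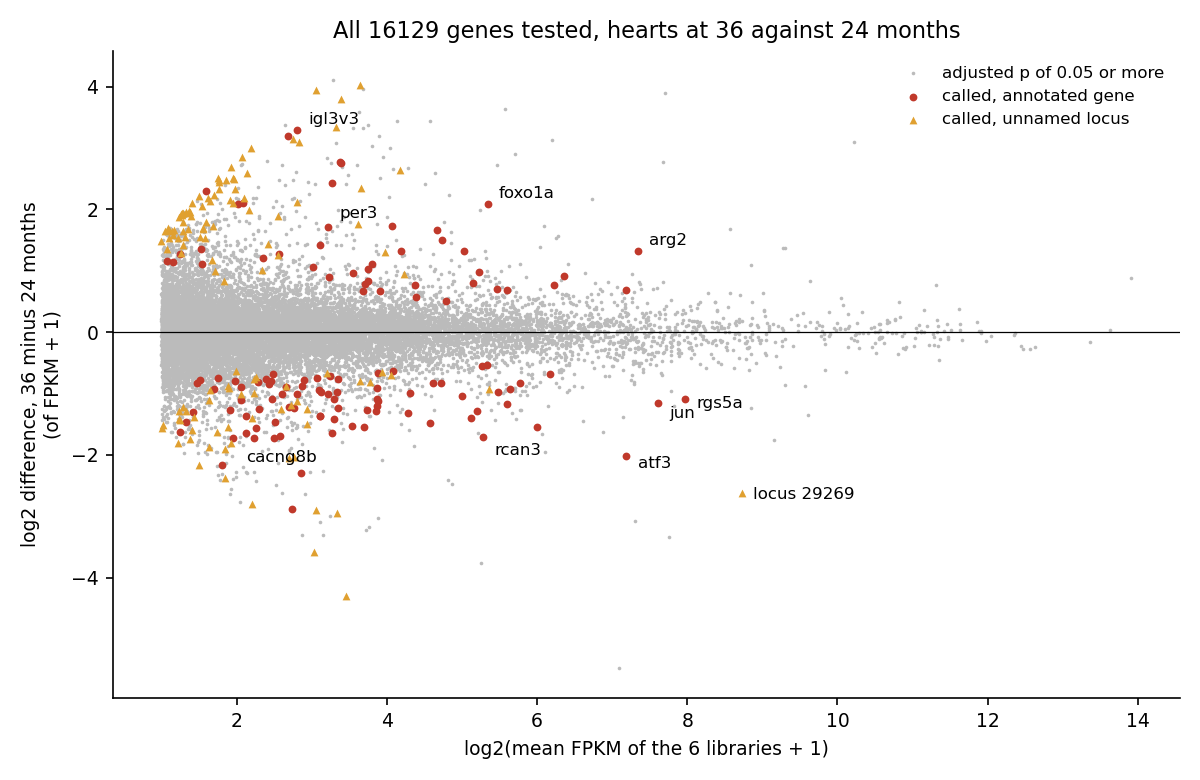
Log2 difference in FPKM + 1 between hearts at 36 and 24 months (vertical axis) against the log2 of the mean level (horizontal axis) for the 16129 genes tested, 1 point per gene. Of the 243 called genes, the 121 loci without a name (triangles) lie mostly at low levels, while foxo1a, arg2, jun, atf3 and rgs5a are called at high ones.

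The calls rested on the whole set of libraries. With a single library left out the number called ran from 56 (without 24-month replicate 1) to 472 (without 6-month replicate 1), and 39 genes kept their call without each of the 12 libraries in turn. Of these 39, 26 were loci without a name. A further 12 carried a gene symbol: foxo1a, per3 and igl3v3 rose, and atf3, cacng8b, ugt2a6, hsd17b12a, fam46ba, zbtb47b, fam117aa, ypel3 and rnf145a fell. These 12 were singled out after their values were seen. Of the 68 calls among the genes named by the rule, 36 ended under at least 1 other way of processing the same libraries, not counting a replicate block, such as a smaller pseudocount, no filter on low values, voom on recovered reads or a fit of the 6 libraries alone. They were the calls of arg2, ASS1, bnip3lb, cbx1a, cers4a, cpne4a, cry2, CT737162.2, CU459094.3, CYP27A1, dicp1.1, dusp8b, exosc3, hbegfa, hsf2, itga10, lss, lyve1a, mmp11b, mpl, nr1d2b, nr1d4b, opn9, qsox1, rgs5a, slc14a2, slc27a1a, stat3, tnfaip6, trim54, vars2, wdr47b, zbtb16b, znf292b, locus 29269 and locus 4496. Members of lists that were not called, beyond the 2 of lowest p in lists with 0 calls, were picked for mention after their values were seen. Those 2 are not described for every such list, and the choice among them was made with their values seen.

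The gene foxo1a (ENSDARG00000099555, GRCz11 chromosome 15, 3296910 to 3391535, plus strand) encodes a forkhead transcription factor that insulin signalling keeps out of the nucleus. Its level was 64.6, 75.9 and 53.5 FPKM at 36 months, against 12.2, 13.9 and 17.3 FPKM at 24 months. Every 36-month library was more than 3 times as high as any of 24 months, and the means were 64.7 ± 11.2 FPKM at 36 months and 14.4 ± 2.61 FPKM at 24 months (SD, n = 3 each, log2 difference 2.09 ± 0.25, adjusted p = 0.00409). At the younger ages foxo1a had 8.99 ± 3.3 FPKM at 6 months and 19.1 ± 5.47 FPKM at 12 months, so the level at 36 months stood above all 9 younger libraries. Of 66 genes of insulin, IGF and TOR signalling tested, 1 was higher (foxo1a), 0 were lower and 65 were not called, with a median of 0.02.

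Targets and receptors of glucocorticoids, steroid hormones of the stress response, gave 3 calls of 38 tested, all higher. Of all genes tested 1.51% were called, and the median was 0.02 for the list and for all genes. Beside foxo1a, also in the insulin list, the calls were zbtb16b and cry2, the latter also a clock gene. The zinc finger factor zbtb16b had 21.9, 24.9 and 25.6 FPKM at 36 months, against 5.18, 4.12 and 12.7 FPKM at 24 months, and 24-month replicate 3 was the highest of its age (log2 difference 1.73 ± 0.35, adjusted p = 0.0398). Among members not called, pdk4, which holds back pyruvate dehydrogenase, had 116, 162 and 98.4 FPKM at 36 months, against 81.1, 72.1 and 105 FPKM at 24 months (adjusted p = 0.194). The receptor gene nr3c2 had 7.11, 4.82 and 4.57 FPKM at 36 months, against 8.87, 7.77 and 8.68 FPKM at 24 months (adjusted p = 0.247). Calls ended for zbtb16b without 36-month replicate 1, 2 or 3, 24-month replicate 1 or 2, 12-month replicate 1 or 2 or 6-month replicate 3 (adjusted p up to 0.146).

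Genes of the circadian clock gave 5 calls of 37 tested, 4 higher and 1 lower, beside 1.51% called of all genes tested. The median of the list was -0.10, and 15 of the 37 had positive differences, beside 8388 of all 16129 genes. At an unadjusted p under 0.05, 5 were higher and 8 lower, beside 8.59% higher and 8.91% lower of all genes tested. In the vertebrate clock, Clock and Arntl proteins activate period and cryptochrome genes, whose products repress them, and nuclear receptors of the Nr1d family form a second loop. The period gene per3 (GRCz11 chromosome 11, 39694894 to 39756935, plus strand) had 11.4, 15.2 and 13.1 FPKM at 36 months, against 3.51, 3.54 and 2.93 FPKM at 24 months. All 3 libraries of 36 months were above 11 FPKM and all of 24 months under 4 (log2 difference 1.71 ± 0.18, adjusted p = 0.00166), and a locus without a name overlaps the gene, so its level is uncertain. The repressor nr1d2b had 61.6, 64 and 51.4 FPKM at 36 months, against 40.2, 37.6 and 30.9 FPKM at 24 months (log2 difference 0.69 ± 0.13, adjusted p = 0.0358). The cryptochrome cry2 had 27.6, 33.5 and 32.9 FPKM at 36 months, against 22.6, 21.4 and 21.2 FPKM at 24 months (log2 difference 0.50 ± 0.11, adjusted p = 0.047) and no library of 24 months reached those of 36. The related receptor nr1d4b went the other way, with 1.92, 1.57 and 1.67 FPKM at 36 months, against 7.67, 12.1 and 4.88 FPKM at 24 months (log2 difference -1.69 ± 0.33, adjusted p = 0.0363). All 3 values of nr1d4b at 36 months were under 2 FPKM, and those at 24 months were spread more widely. The heat shock factor hsf2, listed with the clock outputs, had 9.73, 14.1 and 10.1 FPKM at 36 months, against 5.74, 4.66 and 6.17 FPKM at 24 months (log2 difference 0.90 ± 0.17, adjusted p = 0.0308).

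The 3 clock activators tested all had negative differences, with a median of -0.81, and 0 of them were called. Of these clocka had 1.91, 1.95 and 1.62 FPKM at 36 months, against 3.46, 3.78 and 4.7 FPKM at 24 months (adjusted p = 0.165) and arntl1b had 5.67, 7.59 and 7.47 FPKM at 36 months, against 13, 13.1 and 16.1 FPKM at 24 months (adjusted p = 0.276). The third, arntl1a, had 21.8, 23.9 and 23.9 FPKM at 36 months, against 31.9, 31.5 and 37.8 FPKM at 24 months (adjusted p = 0.378), and none of the 3 overlapped between the ages, as was so for 25.6% of all genes tested. Among outputs not called, nocta, a deadenylase, had 22.9, 16.8 and 11.9 FPKM at 36 months, against 67.3, 40.9 and 57.6 FPKM at 24 months (adjusted p = 0.0736), and nfil3-5 had 24.4, 25.4 and 28.8 FPKM at 36 months, against 148, 116 and 66.3 FPKM at 24 months (adjusted p = 0.242). Over the 4 ages per3 averaged 11.6, 9.69, 3.33 and 13.3 FPKM at 6, 12, 24 and 36 months, nr1d2b 74.3, 66.7, 36.2 and 59 FPKM at 6, 12, 24 and 36 months and nr1d4b 1.12, 1.04, 8.21 and 1.72 FPKM at 6, 12, 24 and 36 months. Means of cry2 were 29.5, 30.6, 21.7 and 31.3 FPKM at 6, 12, 24 and 36 months. Those of hsf2 were 18.9, 15.8, 5.52 and 11.3 FPKM, so its level at 36 months was under those at 6 and 12. The level at 24 months was thus the lowest of the 4 for per3, nr1d2b, cry2 and hsf2 and the highest for nr1d4b. Against 12 months, the 24-month log2 differences were -1.29 (adjusted p = 0.0154) for per3, -1.37 (adjusted p = 0.0149) for hsf2 and 2.12 (adjusted p = 0.0231) for nr1d4b, from the same 24-month libraries. For nr1d2b the difference was -0.87 (adjusted p = 0.0231), and for cry2, not called there, -0.47 (adjusted p = 0.0746). The time of day at which hearts were taken is not stated, and its part in these values was not tested. Calls ended for nr1d2b without 36-month replicate 1 or 2, 24-month replicate 1, 2 or 3 or 12-month replicate 1 or 2 (adjusted p up to 0.116), for cry2 without 36-month replicate 2 or 3, 24-month replicate 1, 2 or 3, 12-month replicate 1, 2 or 3 or 6-month replicate 2 or 3 (adjusted p up to 0.142) and for nr1d4b without 36-month replicate 1, 2 or 3, 24-month replicate 1 or 2 or 12-month replicate 1 or 2 (adjusted p up to 0.116). The calls were lost for hsf2 without 36-month replicate 2 or 3, 24-month replicate 1, 2 or 3 or 12-month replicate 1 (adjusted p up to 0.0977).

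Immediate early genes, which cells induce within minutes of growth signals or stress, gave 4 calls of 62 tested, all lower. Of all genes tested 1.51% were called. The 62 had a median of -0.23. At an unadjusted p under 0.05, 15 were lower and 3 higher, beside 8.91% lower and 8.59% higher of all genes tested. The stress-induced transcription factor atf3 (GRCz11 chromosome 20, 37891754 to 37897858, plus strand) had 70.1, 50 and 49.4 FPKM at 36 months, against 239.5, 291 and 169.6 FPKM at 24 months. Its means were 56.5 ± 11.8 FPKM at 36 months and 233 ± 61 FPKM at 24 months (SD, n = 3 each, log2 difference -2.01 ± 0.24, adjusted p = 0.00409), and its highest library at 36 months was under its lowest at 24. The AP-1 component jun had 131, 103 and 123 FPKM at 36 months, against 309, 305 and 194 FPKM at 24 months (log2 difference -1.15 ± 0.19, adjusted p = 0.0177). The MAP kinase phosphatase dusp8b had 11.5, 8.31 and 14 FPKM at 36 months, against 41.5, 42.9 and 19.5 FPKM at 24 months (log2 difference -1.48 ± 0.31, adjusted p = 0.0425), and the growth factor gene hbegfa had 34.9, 36.6 and 43 FPKM at 36 months, against 76.5, 78 and 53.6 FPKM at 24 months (log2 difference -0.83 ± 0.18, adjusted p = 0.0494). For both, 24-month replicate 3 was the lowest of its age, and no 36-month library reached it.

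Other members of the early response lay lower without being called. The orphan receptor nr4a1 had 29.3, 26.8 and 33.2 FPKM at 36 months, against 98.3, 147 and 59.9 FPKM at 24 months (adjusted p = 0.0714), and jund, another AP-1 gene, had 43.6, 47.4 and 61.1 FPKM at 36 months, against 191, 132 and 106 FPKM at 24 months (adjusted p = 0.11). The AP-1 gene fosab had 5.69, 6.63 and 10.3 FPKM at 36 months, against 10.7, 43.7 and 15.2 FPKM at 24 months (adjusted p = 0.162), and the zinc finger gene egr1 had 8.96, 13.5 and 14.6 FPKM at 36 months, against 14.1, 69.9 and 17.1 FPKM at 24 months (adjusted p = 0.304), overlapping between the ages. The inhibitor nfkbiaa pointed the other way, at 29.3, 29.5 and 21.6 FPKM at 36 months, against 16.6, 16.2 and 9.23 FPKM at 24 months (adjusted p = 0.181). Means of atf3 were 292, 185, 233 and 56.5 FPKM at 6, 12, 24 and 36 months, and means of jun were 331, 202, 269 and 119 FPKM at 6, 12, 24 and 36 months. Calls ended for jun without 36-month replicate 2 or 3 or 24-month replicate 1 or 2 (adjusted p up to 0.0736), for dusp8b without 36-month replicate 1, 2 or 3, 24-month replicate 1 or 2, 12-month replicate 1, 2 or 3 or 6-month replicate 2 or 3 (adjusted p up to 0.155) and for hbegfa without 36-month replicate 1, 2 or 3, 24-month replicate 1 or 2 or 12-month replicate 1, 2 or 3 (adjusted p up to 0.166).

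The deubiquitinase gene otud1 was lower, with 30.6, 30.7 and 31.1 FPKM at 36 months, against 108, 116 and 62.3 FPKM at 24 months. The 3 values at 36 months lay within 1 FPKM of each other, and those at 24 months were wider apart (log2 difference -1.55 ± 0.24, adjusted p = 0.0135). In the list of ubiquitin and atrophy genes, 1 member rose and 1 fell of 73 tested, beside 1.51% called of all genes tested. The member that rose was trim54, a muscle ring-finger ubiquitin ligase of the sarcomere, with 1.66, 1.97 and 2.11 FPKM at 36 months, against 0.372, 0.219 and 0.315 FPKM at 24 months (log2 difference 1.16 ± 0.22, adjusted p = 0.0326). It entered the test through its level at 36 months. Of the atrophy ligases not called, trim63b had 51.5, 74.6 and 78.1 FPKM at 36 months, against 136, 111 and 83.1 FPKM at 24 months (adjusted p = 0.259). Calls ended for otud1 without 24-month replicate 1 or 2 (adjusted p up to 0.0617) and for trim54 without 36-month replicate 1, 2 or 3, 24-month replicate 1, 2 or 3 or 12-month replicate 1 (adjusted p up to 0.095).

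**Figure D2:**
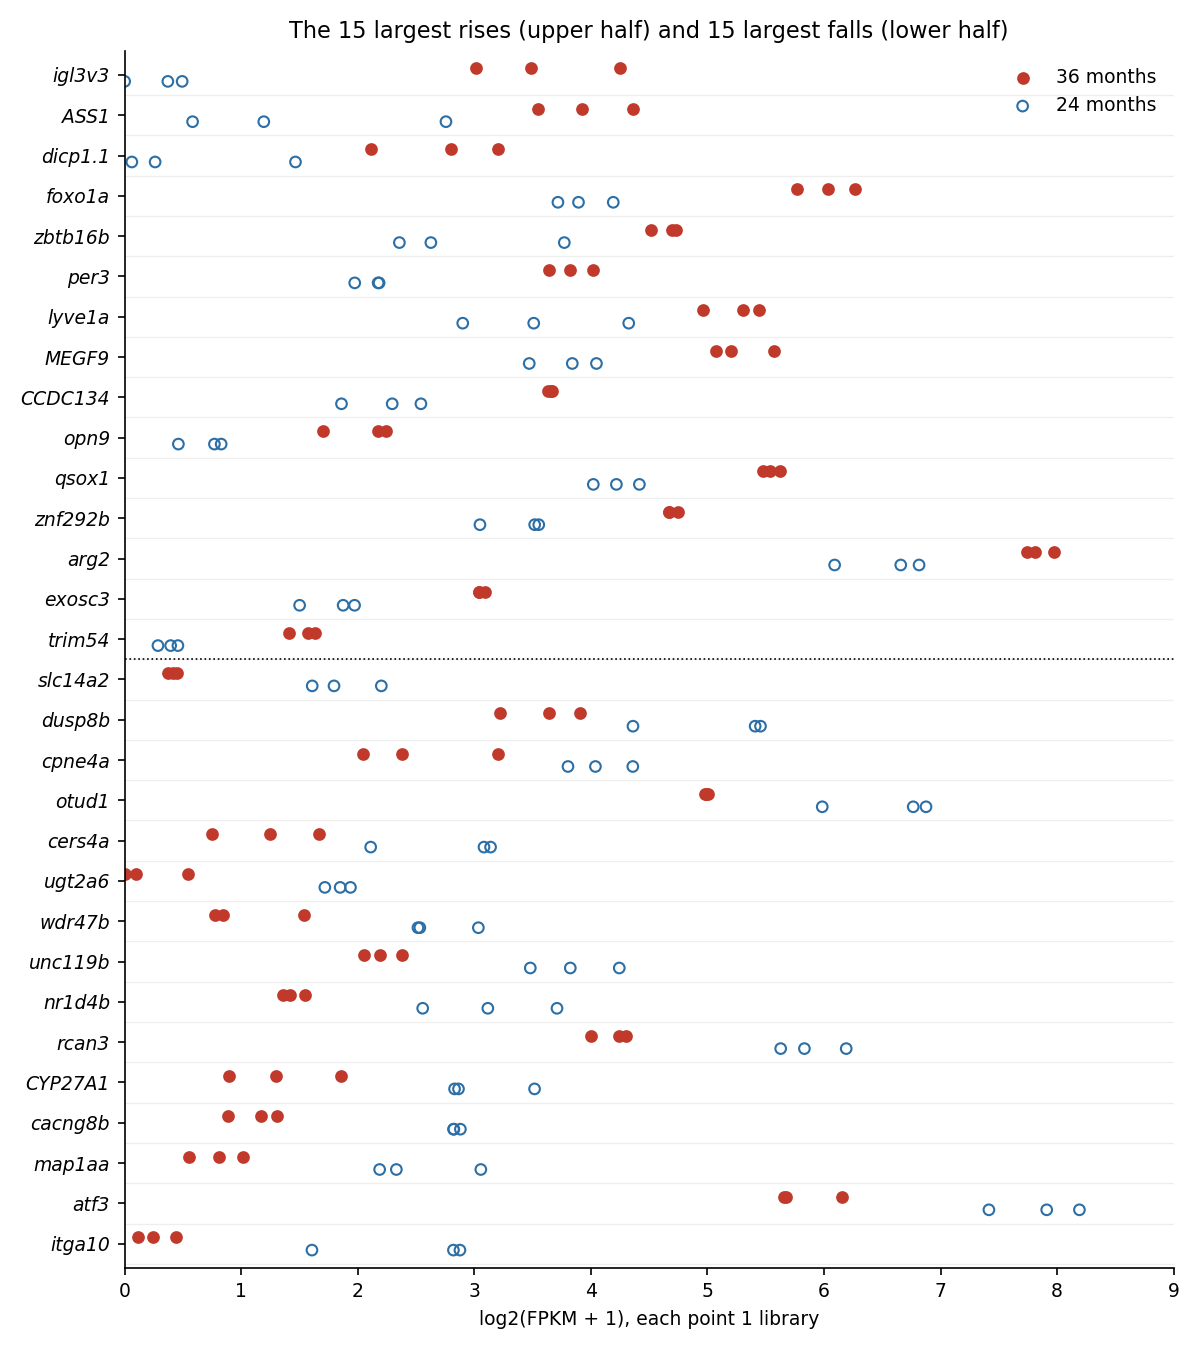
Log2(FPKM + 1) of the 15 largest rises and the 15 largest falls among called protein-coding genes with a symbol, 1 point per library, with 36 months as filled points above 24 months as open points in each row. In every row both ages are apart, since only genes whose values do not overlap between the ages were taken. The level of foxo1a is between 53.5 and 75.9 FPKM at 36 months, and that of atf3 between 49.4 and 70.1.

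Among the largest falls, rcan3, a regulator of the calcium-dependent phosphatase calcineurin, had 15, 18.7 and 17.9 FPKM at 36 months, against 48.5, 55.9 and 72 FPKM at 24 months (log2 difference -1.70 ± 0.27, adjusted p = 0.0152). Its means were 14.3, 14.4, 58.8 and 17.2 FPKM at 6, 12, 24 and 36 months, so the 24-month libraries stood above those of the 3 other ages. It was the 1 gene called of 26 genes of natriuretic peptides and wall stress. The cyclin-dependent kinase inhibitor cdkn1a, which arrests the cell cycle, had 24.9, 23 and 14.3 FPKM at 36 months, against 45.8, 53.1 and 53.9 FPKM at 24 months (log2 difference -1.29 ± 0.21, adjusted p = 0.0194). It also peaked at 24 months, with 20.5, 18.7, 51 and 20.7 FPKM at 6, 12, 24 and 36 months. It was the 1 gene called of 48 tested in the list of senescence and p53 targets, whose median was 0.04. Set against 12 months, where 120 genes were called (0.744%), the 24-month libraries gave log2 differences of 1.40 (adjusted p = 0.0231) for cdkn1a and 1.95 (adjusted p = 0.0154) for rcan3. Both comparisons share the 24-month libraries. The list's phlda2 had 77.1, 75.6 and 77.7 FPKM at 36 months, against 209.5, 168 and 237 FPKM at 24 months (adjusted p just past the threshold, 0.05003), and its tp53inp1, a p53 target, had 18.4, 16.6 and 31 FPKM at 36 months, against 14.1, 8.89 and 9.44 FPKM at 24 months (adjusted p = 0.128). Calls ended for rcan3 without 36-month replicate 1 or 24-month replicate 2 or 3 (adjusted p up to 0.0593) and for cdkn1a without 24-month replicate 1, 2 or 3 (adjusted p up to 0.068).

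**Figure D3:**
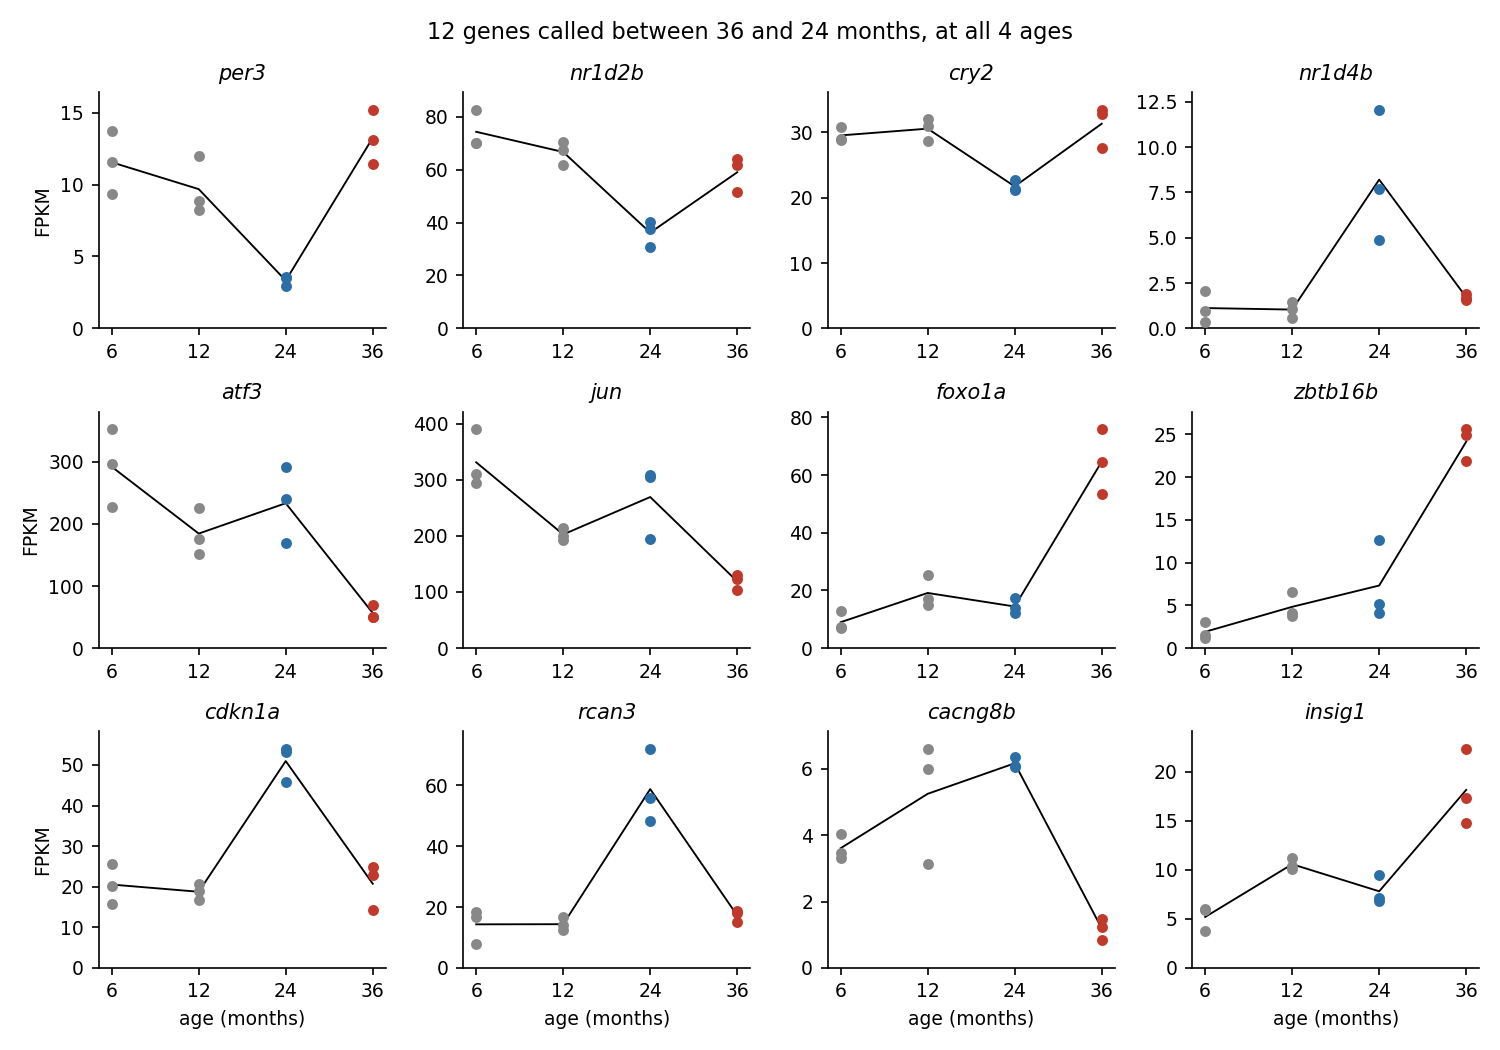
FPKM (vertical axes, from 0) of 12 genes called between 36 and 24 months, at 6, 12, 24 and 36 months. Each point is a library and the line joins the means. The 24-month libraries stand lowest for per3, nr1d2b and cry2 and highest for nr1d4b, cdkn1a and rcan3, while foxo1a and zbtb16b stand highest at 36 months.

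Of the other named falls, cacng8b, an auxiliary subunit of ion channels and glutamate receptors, had 0.849, 1.25 and 1.48 FPKM at 36 months, against 6.36, 6.08 and 6.07 FPKM at 24 months (log2 difference -1.72 ± 0.22, adjusted p = 0.00494). The integrin gene itga10 had 0.0842, 0.359 and 0.186 FPKM at 36 months, against 6.06, 2.05 and 6.34 FPKM at 24 months (log2 difference -2.17 ± 0.40, adjusted p = 0.0304), and a locus without a name overlaps it. The microtubule-associated gene map1aa had 1.02, 0.47 and 0.756 FPKM at 36 months, against 4.03, 3.56 and 7.31 FPKM at 24 months (log2 difference -1.73 ± 0.31, adjusted p = 0.0263). These 3 genes had at most 5 FPKM at 36 months in every library. The lipid-binding chaperone unc119b averaged 3.63 ± 0.531 FPKM at 36 months and 13.8 ± 3.92 FPKM at 24 months (log2 difference -1.64 ± 0.25), and cpne4a, a copine that binds phospholipid in the presence of calcium, 5.18 ± 2.69 against 16 ± 3.32 FPKM (-1.52 ± 0.32). The ceramide synthase cers4a averaged 1.41 ± 0.753 against 6.2 ± 2.5 FPKM (-1.56 ± 0.32), the WD-repeat gene wdr47b 1.14 ± 0.666 against 5.57 ± 1.41 FPKM (-1.64 ± 0.32) and the urea transporter slc14a2 0.331 ± 0.0341 against 2.71 ± 0.802 FPKM (-1.46 ± 0.25). Errors of these means are SD over 3 libraries. Calls ended for itga10 without 36-month replicate 1, 2 or 3 or 24-month replicate 1 or 3 (adjusted p up to 0.11), for map1aa without 36-month replicate 1, 2 or 3 or 24-month replicate 1, 2 or 3 (adjusted p up to 0.0958) and for unc119b without 24-month replicate 1 (adjusted p up to 0.0545). The calls were lost for cpne4a without 36-month replicate 2 or 3, 24-month replicate 1, 2 or 3, 12-month replicate 1 or 2 or 6-month replicate 3 (adjusted p up to 0.14), for cers4a without 36-month replicate 1, 2 or 3, 24-month replicate 1 or 3, 12-month replicate 1 or 6-month replicate 2 or 3 (adjusted p up to 0.157) and for wdr47b without 36-month replicate 1 or 3, 24-month replicate 1, 2 or 3 or 12-month replicate 1 (adjusted p up to 0.11). Calls were likewise lost for slc14a2 without 36-month replicate 1, 2 or 3 or 24-month replicate 1 or 3 (adjusted p up to 0.0757).

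A pair of genes with roles in liver metabolism were among the falls. The sterol 27-hydroxylase CYP27A1 had 2.62, 0.859 and 1.46 FPKM at 36 months, against 6.11, 6.28 and 10.4 FPKM at 24 months (log2 difference -1.72 ± 0.34, adjusted p = 0.0379). The glucuronosyltransferase ugt2a6, of a family of similar genes, had 0, 0.461 and 0.0682 FPKM at 36 months, against 2.83, 2.6 and 2.29 FPKM at 24 months (log2 difference -1.62 ± 0.21, adjusted p = 0.00559). Markers of hepatocytes, which a heart should lack, also had a lower summed level. The sum over 100 such genes was 194 to 240 FPKM at 36 months and 295 to 398 FPKM at 24 months, with 14 genes at 0 in all 6 libraries. At the younger ages it was 259, 1565 and 216 FPKM at 12 months and 1034, 193 and 188 FPKM at 6 months. A large part of the sum was f10, with 107, 82.4 and 81.7 FPKM at 36 months, against 154, 143 and 146 FPKM at 24 months (adjusted p = 0.177). Among the 100, the liver fatty acid binding protein gene fabp10a had 2.07, 0.425 and 5.28 FPKM at 36 months, against 35.9, 16.6 and 21.9 FPKM at 24 months (adjusted p = 0.257), and the apolipoprotein gene apoa1b had 0.232, 0.38 and 0.197 FPKM at 36 months, against 18.3, 11.9 and 6.93 FPKM at 24 months (adjusted p = 0.296). Of 22 hepatocyte genes tested 0 were called. The 7 vitellogenin genes, which encode yolk proteins made in the female liver, summed to 0.38, 0.6 and 0.33 FPKM at 36 months and to 51.0, 9.95 and 19.4 FPKM at 24 months. The part of liver RNA in the 2 falls was not tested. Calls ended for CYP27A1 without 36-month replicate 2 or 3, 24-month replicate 1, 2 or 3 or 12-month replicate 1 or 2 (adjusted p up to 0.125).

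Other genes that fell whatever library was left out have varied roles. The poly(A) polymerase gene fam46ba had 17.4, 20.8 and 15.7 FPKM at 36 months, against 62.5, 42.2 and 44.2 FPKM at 24 months (log2 difference -1.40 ± 0.18, adjusted p = 0.006), and hsd17b12a, an enzyme of long-chain fatty acid synthesis, had 5.37, 3.53 and 4.17 FPKM at 36 months, against 14, 10.9 and 14.9 FPKM at 24 months (log2 difference -1.42 ± 0.19, adjusted p = 0.006). The ubiquitin ligase gene rnf145a of the endoplasmic reticulum had 4.29, 4.06 and 4.1 FPKM at 36 months, against 7.84, 8.56 and 8.93 FPKM at 24 months (log2 difference -0.87 ± 0.11, adjusted p = 0.00479). The differences of ypel3, fam117aa and zbtb47b were -1.0 ± 0.12, -1.23 ± 0.15 and -1.23 ± 0.17, with adjusted p = 0.00409, 0.00409 and 0.0101.

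Among the largest rises, the arginase gene arg2 had the highest level, with 223, 213 and 249.9 FPKM at 36 months, against 112, 67.2 and 99.98 FPKM at 24 months (log2 difference 1.32 ± 0.28, adjusted p = 0.0444). Its means were 139, 313, 92.9 and 229 FPKM at 6, 12, 24 and 36 months, so the 12-month level exceeded that at 36. The 24-month mean was the lowest. Against 12 months its log2 difference was -1.77 (adjusted p = 0.0231), from the same 24-month libraries. The argininosuccinate synthase gene ASS1 on scaffold KN150552.1 had 10.7, 14.2 and 19.6 FPKM at 36 months, against 5.76, 0.498 and 1.29 FPKM at 24 months (log2 difference 2.43 ± 0.45, adjusted p = 0.0308), and 24-month replicate 1 was the highest of its age. Together these enzymes make and use arginine. They were the 2 called of 38 genes of the retinoid, arginine and urea cycle list, beside 1.51% called of all genes tested. In the same list rbp2a, a retinol carrier, had 75.3, 155 and 297 FPKM at 36 months, against 23, 29.2 and 52.7 FPKM at 24 months (adjusted p = 0.0684), and 36-month replicate 3 was the highest. A locus without a name overlaps ASS1. Calls ended for arg2 without 36-month replicate 1, 2 or 3, 24-month replicate 1, 2 or 3, 12-month replicate 1, 2 or 3 or 6-month replicate 3 (adjusted p up to 0.131) and for ASS1 without 36-month replicate 1, 2 or 3 or 24-month replicate 2 or 3 (adjusted p up to 0.095).

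The disulfide-forming oxidase qsox1 averaged 45.7 ± 2.28 FPKM at 36 months and 17.7 ± 2.56 FPKM at 24 months (SD, n = 3 each, log2 difference 1.33 ± 0.27). The zinc finger gene znf292b averaged 24.9 ± 0.859 against 9.49 ± 1.92 FPKM (1.32 ± 0.26) and exosc3, of the RNA exosome, 7.33 ± 0.187 against 2.47 ± 0.572 FPKM (1.28 ± 0.25). The opsin gene opn9 averaged 3.17 ± 0.791 against 0.619 ± 0.213 FPKM (1.35 ± 0.26), and a locus without a name overlaps it. The EGF-domain gene MEGF9 averaged 38.4 ± 7.32 against 13 ± 2.74 FPKM (1.5 ± 0.27), and CCDC134, of the secretory pathway, 11.6 ± 0.132 against 3.79 ± 1.1 FPKM (1.42 ± 0.22). More than 1 gene in the tables bears the symbol MEGF9, CCDC134 or exosc3, so reads could be split between copies. Calls ended for qsox1 without 36-month replicate 1, 2 or 3, 24-month replicate 1, 2 or 3, 12-month replicate 1 or 6-month replicate 3 (adjusted p up to 0.125), for znf292b without 36-month replicate 1, 2 or 3, 24-month replicate 1, 2 or 3 or 12-month replicate 2 (adjusted p up to 0.139) and for exosc3 without 36-month replicate 1, 2 or 3, 24-month replicate 1, 2 or 3 or 12-month replicate 1 (adjusted p up to 0.141). The calls were lost for opn9 without 36-month replicate 2 or 3, 24-month replicate 1, 2 or 3 or 12-month replicate 2 (adjusted p up to 0.118), for MEGF9 without 36-month replicate 1, 2 or 3 or 24-month replicate 1, 2 or 3 (adjusted p up to 0.106) and for CCDC134 without 24-month replicate 1 or 2 (adjusted p up to 0.055).

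Sterol genes gave 2 calls of 58 tested, both higher, beside 1.51% called of all genes tested. The median of the 58 was 0.21. At an unadjusted p under 0.05, 15 were higher and 1 lower, beside 8.59% higher and 8.91% lower of all genes tested. The lanosterol synthase gene lss had 1.59, 2.08 and 2.51 FPKM at 36 months, against 0.396, 0.489 and 0.251 FPKM at 24 months (log2 difference 1.14 ± 0.19, adjusted p = 0.0186) and entered the test through its level at 36 months. The gene insig1, whose product restrains sterol synthesis, had 14.8, 17.3 and 22.3 FPKM at 36 months, against 6.81, 7.14 and 9.44 FPKM at 24 months (log2 difference 1.11 ± 0.19, adjusted p = 0.024). The sterol-sensing transcription factor gene srebf2 had 49.1, 57.9 and 59.5 FPKM at 36 months, against 33.2, 39.8 and 38.4 FPKM at 24 months (adjusted p = 0.0858), and ebp, an enzyme late in the pathway, had 4.52, 3.76 and 5.08 FPKM at 36 months, against 2.01, 2.38 and 2.03 FPKM at 24 months (adjusted p = 0.122). The desaturase scd, of fatty acid synthesis, had 4.6, 28.8 and 385 FPKM at 36 months, against 0.597, 3.92 and 11.4 FPKM at 24 months (adjusted p = 0.268), the highest value being in 36-month replicate 3. Calls ended for lss without 36-month replicate 2 or 3 or 24-month replicate 1 or 3 (adjusted p up to 0.0659) and for insig1 without 36-month replicate 2 or 3 or 24-month replicate 1 or 2 (adjusted p up to 0.0926).

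Of 66 genes of fatty acid oxidation 1 was called, the fatty acid carrier slc27a1a, with 32.6, 32.9 and 30.9 FPKM at 36 months, against 47.8, 44.5 and 48.1 FPKM at 24 months (log2 difference -0.53 ± 0.10, adjusted p = 0.0332). The 33 mitochondrial and peroxisomal enzymes had a median of -0.31, with 8 positive, beside 8388 of all 16129 genes tested. Of these cpt1ab, which admits fatty acids to mitochondria, had 98.7, 119 and 115 FPKM at 36 months, against 178, 162 and 171 FPKM at 24 months (adjusted p = 0.237), and hadh had 119, 96.5 and 115 FPKM at 36 months, against 240.4, 139 and 201 FPKM at 24 months (adjusted p = 0.146). The lipase inhibitor g0s2 had 54.6, 105 and 1043 FPKM at 36 months, against 4.71, 18.9 and 15.3 FPKM at 24 months (adjusted p = 0.0993). Its 36-month replicate 3 held most of that level, and the other 2 libraries also stood above all of 24 months. The same library was highest for dgat2, which makes triglyceride, at 1.66, 9.51 and 96.2 FPKM at 36 months, against 0.372, 1.57 and 1.94 FPKM at 24 months (adjusted p = 0.204). The part of that library in these values was not tested. Calls ended for slc27a1a without 36-month replicate 1, 2 or 3, 24-month replicate 1, 2 or 3 or 12-month replicate 2 (adjusted p up to 0.11).

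Most immune genes had positive differences, and few were called. Of 75 interferon-stimulated genes tested, 0 were called and 63 had positive differences, with a median of 0.38. Over all 16129 genes tested 8388 had positive differences. At an unadjusted p under 0.05, 13 of the 75 were higher and 1 lower, beside 8.59% higher and 8.91% lower of all genes. The chemokine gene cxcl11.8 had 28.4, 32 and 6.22 FPKM at 36 months, against 0.784, 0.922 and 0.166 FPKM at 24 months (adjusted p = 0.0957), and 36-month replicate 3 was the lowest of its age. The interferon regulator irf7 had 17.7, 16.3 and 16.6 FPKM at 36 months, against 9.18, 11.1 and 7.85 FPKM at 24 months (adjusted p = 0.14). Of 60 cytokine and chemokine genes 0 were called, with a median of 0.34. The unadjusted p was under 0.05 for 14 that were higher and 1 that was lower. Among them ccl36.1 had 19.1, 11 and 15.9 FPKM at 36 months, against 4.59, 6.7 and 2.49 FPKM at 24 months (adjusted p = 0.0751), and the receptor il7r had 4.97, 5.87 and 3.21 FPKM at 36 months, against 1.7, 2.39 and 0.719 FPKM at 24 months (adjusted p = 0.132). The inflammatory transcription factor stat3 was higher, with 61.1, 51.3 and 49.5 FPKM at 36 months, against 32.7, 32.2 and 32.9 FPKM at 24 months (log2 difference 0.70 ± 0.14, adjusted p = 0.0401), and its stretch also holds an unnamed locus. The hyaluronan-binding gene tnfaip6 was lower, with 5.89, 6.62 and 11.7 FPKM at 36 months, against 20.3, 17.4 and 19.7 FPKM at 24 months (log2 difference -1.20 ± 0.21, adjusted p = 0.0225). These were the 2 called of 47 JAK-STAT and NF-kB genes, beside 1.51% called of all genes tested. Calls ended for stat3 without 36-month replicate 1, 2 or 3, 24-month replicate 1, 2 or 3 or 12-month replicate 1 or 2 (adjusted p up to 0.121) and for tnfaip6 without 36-month replicate 1 or 2 or 24-month replicate 1, 2 or 3 (adjusted p up to 0.0868).

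Lymphocyte genes gave 1 call of 37 tested, the immunoglobulin light chain segment igl3v3, with 10.2, 7.08 and 18.1 FPKM at 36 months, against 0, 0.408 and 0.293 FPKM at 24 months (log2 difference 3.30 ± 0.40, adjusted p = 0.00409). It entered the test through its level at 36 months alone, so this single call says nothing of the list. Such segments are alike in sequence and a locus without a name overlaps this one, so reads may be split. The summed level of 96 lymphocyte genes was 150 to 235 FPKM at 36 months and 132 to 161 FPKM at 24 months, and 14 were at 0 in all 6 libraries. The T cell marker zap70 had 7.7, 8.35 and 2.06 FPKM at 36 months, against 3.87, 5.12 and 2.45 FPKM at 24 months, and the B cell marker cd79a had 3.76, 2.44 and 1.01 FPKM at 36 months, against 2.67, 2.75 and 1.5 FPKM at 24 months. The immune-type receptor gene dicp1.1, of a family with many similar members, had 5.97, 8.21 and 3.32 FPKM at 36 months, against 0.199, 0.0438 and 1.76 FPKM at 24 months (log2 difference 2.11 ± 0.44, adjusted p = 0.0444). It too entered through 36 months, and locus 19562 lies inside it, both on the plus strand, which makes the level uncertain. Of 65 macrophage and granulocyte genes 0 were called, with a median of 0.30. Their summed level over 108 genes was 2324 to 4458 FPKM at 36 months and 2847 to 4204 FPKM at 24 months, with 15 at 0 in all 6 libraries, marco among them. The macrophage marker mpeg1.1 had 61, 73.5 and 41.3 FPKM at 36 months, against 47.8, 44 and 29.9 FPKM at 24 months, and the neutrophil gene lyz had 686, 216 and 63 FPKM at 36 months, against 347, 1336 and 781 FPKM at 24 months. Another macrophage marker, csf1ra, had 2.01, 2.85 and 1.83 FPKM at 36 months, against 0, 0.918 and 0.0732 FPKM at 24 months (adjusted p = 0.174). It entered through 36 months. Several genes bear the symbol of the macrophage marker mfap4. Those tested had differences of -0.21, -0.41 and 0.05 (adjusted p = 0.786, 0.748 and 0.966), and loci without a name overlap them. The neutrophil marker mpx had 13.9, 3.75 and 1.42 FPKM at 36 months, against 18.6, 26.7 and 15.1 FPKM at 24 months (adjusted p = 0.243). Loci without a name overlap csf1ra and mpx. The part of immune cell number in these values was not tested. Calls ended for dicp1.1 without 36-month replicate 1, 2 or 3, 24-month replicate 1 or 2, 12-month replicate 1, 2 or 3 or 6-month replicate 3 (adjusted p up to 0.157).

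Vessel genes were called one at a time. The hyaluronan receptor lyve1a, a marker of lymphatic endothelium, had 38.5, 42.5 and 30.2 FPKM at 36 months, against 10.4, 6.47 and 19 FPKM at 24 months (log2 difference 1.66 ± 0.36, adjusted p = 0.0494). It was the 1 called of 42 endothelial and endocardial genes, while kdrl, the main VEGF receptor, had 100.5, 74.2 and 85.7 FPKM at 36 months, against 91.3, 86.7 and 78 FPKM at 24 months. Their summed level over 78 genes was 2017 to 4162 FPKM at 36 months and 2291 to 2371 FPKM at 24 months, with 13 at 0 in all 6 libraries. The pericyte gene rgs5a, a regulator of G protein signalling, was lower, with 155, 137 and 178 FPKM at 36 months, against 453, 262 and 309.8 FPKM at 24 months (log2 difference -1.09 ± 0.23, adjusted p = 0.0458), and a locus without a name overlaps it. It was the 1 called of 45 epicardial, fibroblast and mural genes, whose summed level over 99 genes was 4293 to 5823 FPKM at 36 months and 4448 to 5517 FPKM at 24 months, with 20 at 0 in all 6 libraries. The smooth muscle marker tagln had 473, 317 and 549.8 FPKM at 36 months, against 565, 422 and 454 FPKM at 24 months. The mural marker pdgfrb was not called and went the other way from rgs5a (log2 difference 0.64, adjusted p = 0.118). Its values did not overlap between the ages. Calls ended for lyve1a without 36-month replicate 1, 2 or 3, 24-month replicate 1 or 2, 12-month replicate 1, 2 or 3 or 6-month replicate 3 (adjusted p up to 0.157) and for rgs5a without 36-month replicate 1, 2 or 3, 24-month replicate 1, 2 or 3, 12-month replicate 1, 2 or 3 or 6-month replicate 2 (adjusted p up to 0.148).

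Of 37 metalloproteinase and inhibitor genes 2 were lower, mmp11b, a stromelysin, and adam19b, a membrane-bound protease. Of all genes tested 1.51% were called. The level of mmp11b was 1.88, 0.982 and 1.45 FPKM at 36 months, against 7.05, 3.73 and 5.2 FPKM at 24 months (log2 difference -1.36 ± 0.24, adjusted p = 0.024), and that of adam19b was 0.776, 1.69 and 1.16 FPKM at 36 months, against 3.26, 4.42 and 5.32 FPKM at 24 months (log2 difference -1.27 ± 0.23, adjusted p = 0.0251). A locus without a name overlaps adam19b. Of 62 collagen and matrix genes 0 were called (median -0.14), and of 48 TGF-beta and BMP genes 0 were called (median -0.15). The ligand gene tgfb2 had 94, 106 and 139 FPKM at 36 months, against 234, 183 and 177 FPKM at 24 months (adjusted p = 0.0814). The receptor gene bmpr1bb of the same list went the other way, with 2.91, 2.28 and 2.15 FPKM at 36 months, against 0.569, 0.167 and 0.36 FPKM at 24 months (adjusted p = 0.0542). It entered the test through its level at 36 months, and more than 1 gene bears its symbol. Calls ended for mmp11b without 36-month replicate 2 or 3 or 24-month replicate 1 or 3 (adjusted p up to 0.0878) and for adam19b without 36-month replicate 1 or 3 or 24-month replicate 2 or 3 (adjusted p up to 0.0875).

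Single genes were called in some further lists, lower except for mbnl1 and bnip3lb, which were higher. The thrombopoietin receptor mpl averaged 4.92 ± 0.579 FPKM at 36 months and 10.6 ± 1.09 FPKM at 24 months (SD, n = 3 each, log2 difference -0.97 ± 0.20), 1 of 5 thrombocyte genes tested. The summed level of 18 thrombocyte genes was 34.9 to 71.9 FPKM at 36 months and 90.4 to 115 FPKM at 24 months, with 5 at 0 in all 6 libraries, and the defining marker gp1bb was among these. The part of thrombocyte number was not tested. The neurotrophin receptor ngfra averaged 1.67 ± 0.536 against 4.7 ± 0.617 FPKM (-1.11 ± 0.19), 1 of 23 neural and Schwann genes, whose median was -0.04. The Schwann cell marker mpz was not called and went the other way. It had 5.56, 6.9 and 16.1 FPKM at 36 months, against 4.71, 4.28 and 5.51 FPKM at 24 months (adjusted p = 0.255). The Notch target her6 averaged 28.5 ± 0.197 against 66.7 ± 14 FPKM (-1.17 ± 0.20), the heterochromatin protein gene cbx1a 16.6 ± 1.95 against 30.3 ± 4.74 FPKM (-0.82 ± 0.16) and the mitochondrial valyl-tRNA synthetase vars2 2.87 ± 0.313 against 5.6 ± 0.77 FPKM (-0.77 ± 0.15). Each of these 3 was the 1 called of its list, of 49, 75 and 32 tested. The splicing regulator mbnl1, overlapped by a locus without a name, averaged 49 ± 11.4 against 23.9 ± 1.83 FPKM (0.98 ± 0.18) and was the 1 called of 105 splicing genes. The mitophagy receptor bnip3lb averaged 179 ± 17.7 against 111 ± 10.2 FPKM (0.68 ± 0.13), the 1 called of 52 autophagy and lysosome genes. Calls ended for mpl without 36-month replicate 1, 2 or 3, 24-month replicate 1, 2 or 3, 12-month replicate 2 or 6-month replicate 2 or 3 (adjusted p up to 0.155), for ngfra without 36-month replicate 2 or 3 or 24-month replicate 1 or 2 (adjusted p up to 0.0766) and for her6 without 36-month replicate 1, 2 or 3 or 24-month replicate 1 or 2 (adjusted p up to 0.0858). The calls were lost for cbx1a without 36-month replicate 1, 2 or 3, 24-month replicate 1, 2 or 3 or 12-month replicate 1 or 2 (adjusted p up to 0.114), for vars2 without 36-month replicate 1, 2 or 3, 24-month replicate 1, 2 or 3, 12-month replicate 1 or 2 or 6-month replicate 3 (adjusted p up to 0.122) and for mbnl1 without 36-month replicate 2 or 3 or 24-month replicate 1, 2 or 3 (adjusted p up to 0.0919). Calls were likewise lost for bnip3lb without 36-month replicate 1 or 3 or 24-month replicate 1, 2 or 3 (adjusted p up to 0.0977).

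Most lists of the heart's own machinery had 0 members called, beside 1.51% of all genes tested. These were 42 sarcomere genes (median -0.13), 34 of calcium handling and conduction (-0.01), 28 cardiac transcription factors (-0.01), 93 nuclear genes of the respiratory chain (-0.14) and 8 genes of the mitochondrial genome (-0.26). Of 103 sarcomere genes in the tables only those 42 passed the filter on low values. At an unadjusted p under 0.05, 2 sarcomere genes were higher and 5 lower, and 0 respiratory chain genes were higher and 7 lower. Genes of cytosolic ribosomal proteins (63 tested, median -0.01), the proteasome (53, 0.11), proliferation (74, -0.08), DNA repair (46, -0.02), hypoxia (27, 0.24), the response to stress of the endoplasmic reticulum (48, -0.05) and the antioxidant response (43, 0.07) likewise had 0 called. Further lists with 0 called were glycolysis and creatine kinases (58, 0.00), the TCA cycle (38, -0.08), mitochondrial ribosomal proteins (65, -0.10), translation factors (50, 0.11), antigen presentation (22, 0.17), complement (9, -0.05), erythroid genes (17, 0.40), skeletal muscle (24, 0.64) and other organs near the heart (11, -0.36). The summed level of 45 erythroid and haemoglobin genes was 3988 to 5242 FPKM at 36 months and 2051 to 3984 FPKM at 24 months, with 13 at 0 in all 6 libraries, hbaa1 among them. Of the 17 tested 15 had positive differences, beside 8388 of all 16129 genes. The part of blood in other values was not tested. Of 87 heat shock and chaperone genes 1 was called, hsf2. Over all 50 lists 34 genes were called of 2106 tested, beside 243 of all 16129. At such a share many lists would hold 0 calls, so 0 does not show a list to be unchanged. Some members of lists with 0 calls lay near the threshold. Of these, keap1a of the antioxidant list (log2 difference 0.55, adjusted p = 0.0524), ercc6 of DNA repair (0.62, adjusted p = 0.0721) and slc16a1a of the glycolysis list (2.17, adjusted p = 0.0736) were higher. Lower were pbx1a of the cardiac transcription factors (-0.80, adjusted p = 0.0652) and synpo2lb of the sarcomere list (-0.49, adjusted p = 0.0826).

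**Figure D4:**
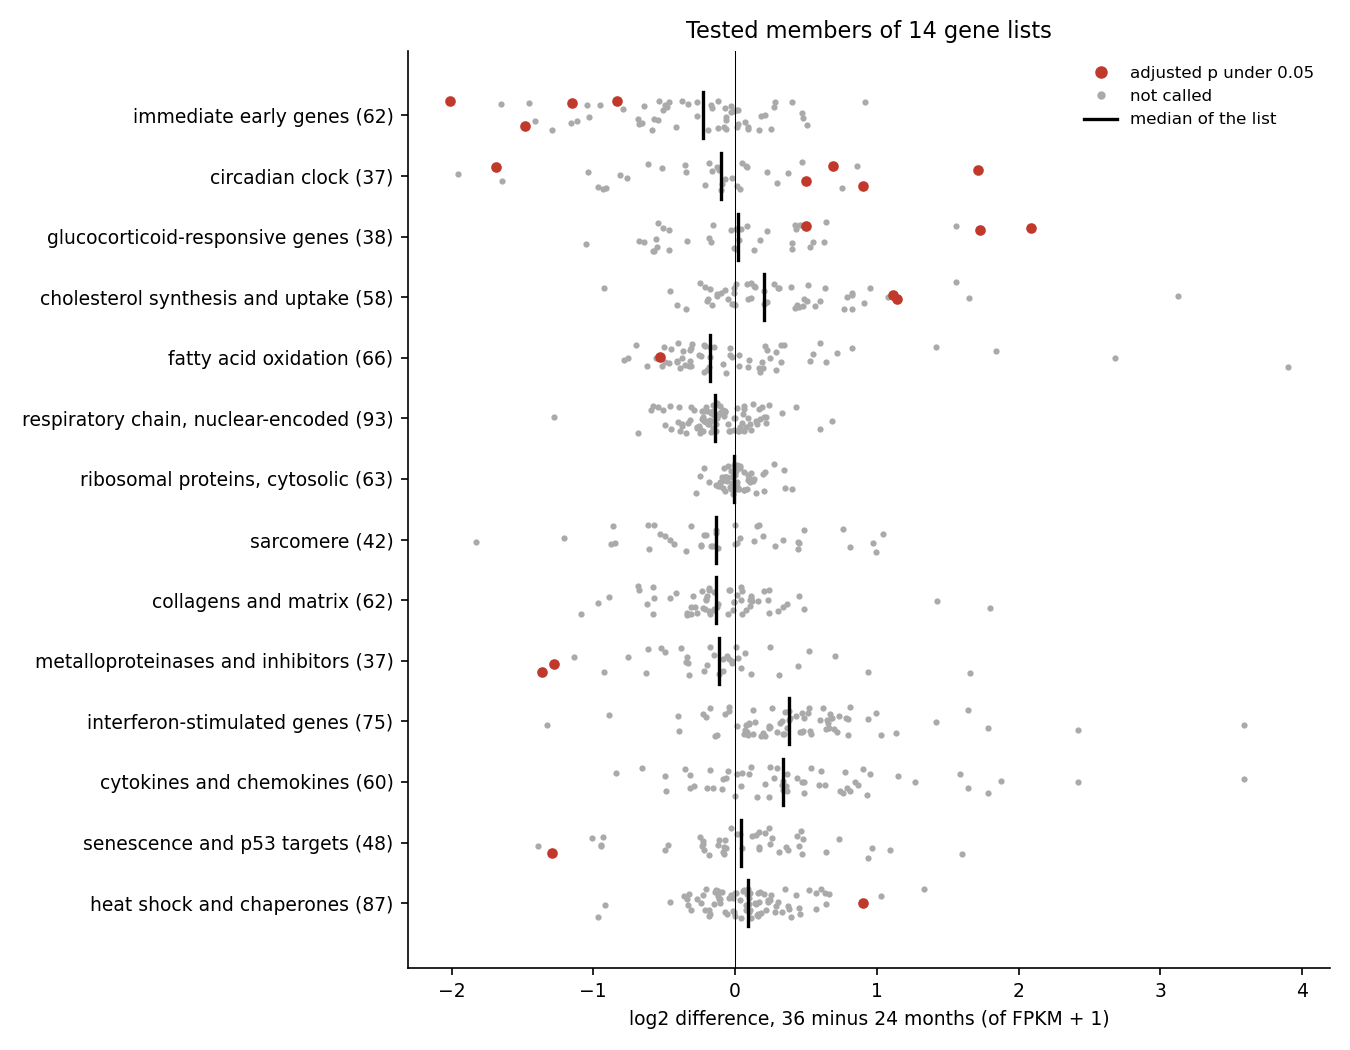
Log2 difference in FPKM + 1, 36 minus 24 months (horizontal axis), for each tested member of 14 gene lists (rows, with the number tested in brackets). Grey points are members not called, red points are called and black bars are list medians. The 4 called immediate early genes lie on the lower side, and the interferon list (median 0.38) has most members above 0 and 0 called.

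Skeletal muscle markers, which belong to another tissue, had a summed level of 24385 to 24696 FPKM at 36 months and 13498 to 18463 FPKM at 24 months over 73 genes, with 3 at 0 in all 6 libraries. The glycolytic gene gapdh, counted in this list and used in heart as well, made up most of it, with 20108, 19809 and 19603 FPKM at 36 months, against 13512, 10427 and 8975 FPKM at 24 months (adjusted p = 0.269). Of the 24 genes tested 19 had positive differences, beside 8388 of all 16129. Creatine kinase gene ckmb had 46.4, 56.4 and 25.4 FPKM at 36 months, against 13, 7.4 and 19.7 FPKM at 24 months (adjusted p = 0.152), and a locus without a name overlaps it. The fast myosin light chain mylpfa, specific to skeletal muscle, had 0.356, 41.3 and 0.831 FPKM at 36 months, against 0.867, 2.06 and 1.94 FPKM at 24 months, and pvalb4 had 0.384, 36.2 and 0.488 FPKM at 36 months, against 1.15, 1.27 and 2.55 FPKM at 24 months. Both were thus above 10 FPKM in 36-month replicate 2 alone. The part of skeletal muscle RNA in other genes of that library was not tested.

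A total of 121 loci without a name were called, 73 higher and 48 lower. Of the 73 that were higher, 20 had at most 0.5 FPKM in each of the 9 younger libraries, against 0 of the 40 protein-coding genes that were higher. Over all genes in the tables, 23 had at least 1 FPKM in each 36-month library and at most 0.5 in each of the 9 others, and all 23 were loci without a name. The count of genes present at a single age was 1 at 6 months, 0 at 12 and 1 at 24. Of the 23 loci, 18 passed the filter on low values, through their level at 36 months alone, and their calls restate how they were chosen. A strand is not stated for 20 of the 23. In the other direction, 6 genes had at most 0.5 FPKM in each 36-month library and at least 1 in each of the 9 others, namely 2 loci without a name and apoa1b, apoa2, igf2bp1 and zgc:123103. Genes missing at a single age numbered 0 at 6 months, 1 at 12 and 2 at 24.

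Locus 12075 (GRCz11 chromosome 2, 10022931 to 10023290) had 16.6, 16.1 and 11.2 FPKM at 36 months, against 0, 0 and 0 FPKM at 24 months. That level stood for 44, 52 and 35 reads at 36 months, against 0 at 24 months. Locus 29249 (chromosome 8, 42595605 to 42595852) had 5.49, 4.05 and 4.66 FPKM at 36 months, against 0, 0 and 0 FPKM at 24 months, from 10, 9 and 10 reads at 36 months, and was listed at 0 in all 9 younger libraries. Loci 29064 and 31226 were likewise listed at 0 in all 9, with 3.31, 4.17 and 3.45 FPKM and 3.26, 3.56 and 3.07 FPKM at 36 months. The read counts behind such loci are small, and no fold is given since the fitted difference of a gene at 0 depends on the pseudocount. Called loci had a median length of 1164 bases, against 1886 for all those tested. Of the 121 called, 57 had no stated strand (2023 of the 5667 tested), 7 lay on unplaced scaffolds (341 of the 5667) and 65 overlapped an annotated gene on either strand. That overlap was not counted for all loci tested, so the 65 cannot be read as particular to called loci.

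**Figure D5:**
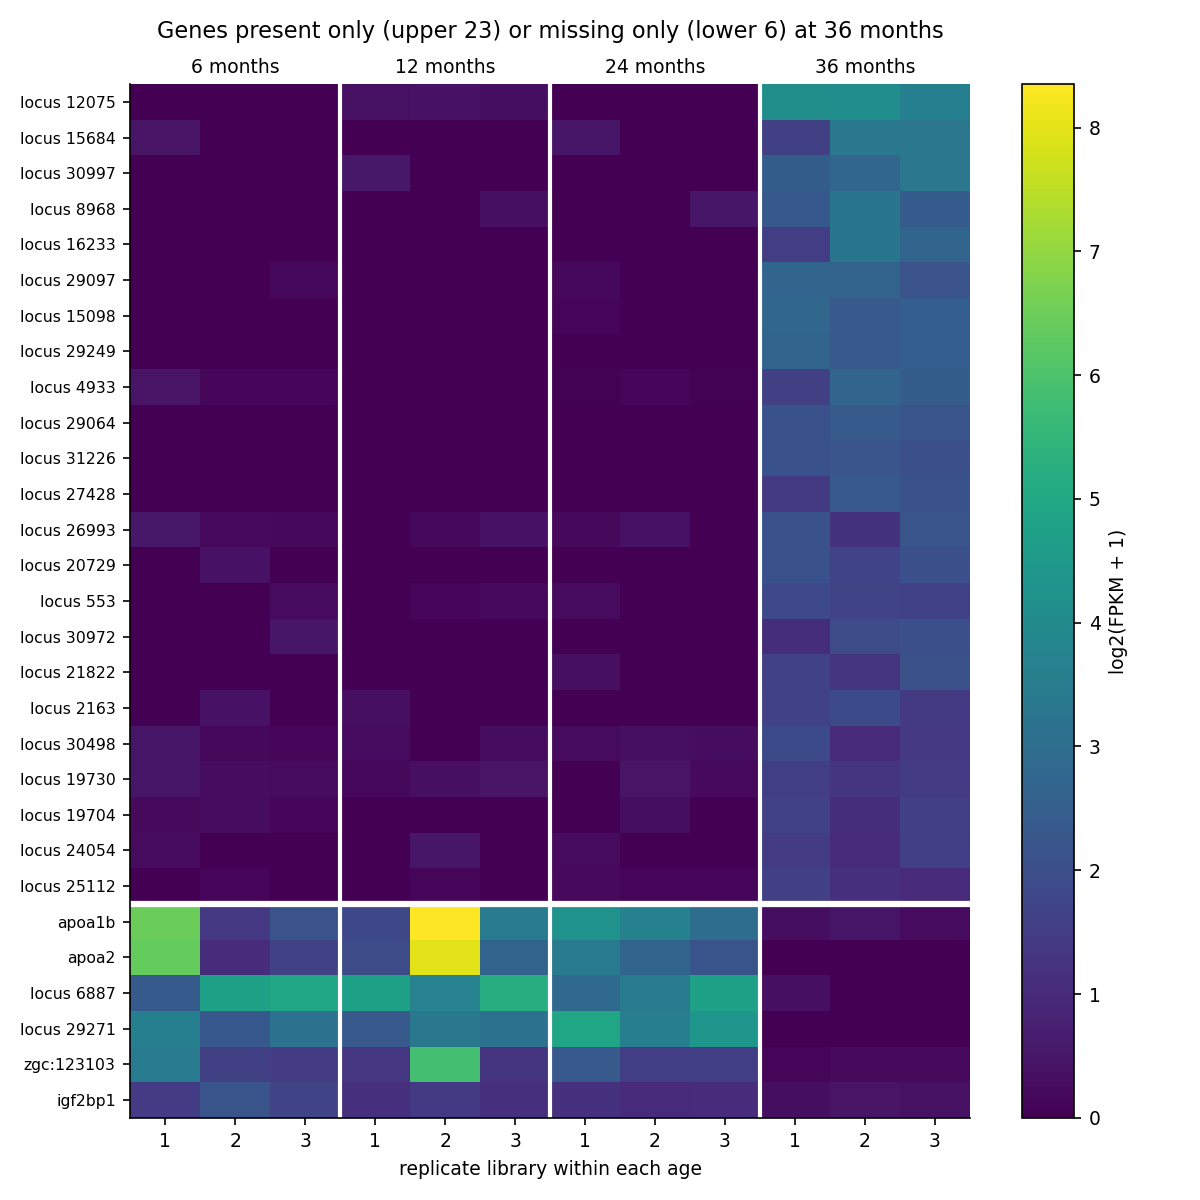
Log2(FPKM + 1) (colour) in each library, by age from 6 to 36 months, for 23 genes present only at 36 months (upper rows) and 6 missing only at 36 months (lower rows). The upper rows, all loci without a name, are at 0.5 FPKM or less in the 9 younger libraries, and apoa1b and apoa2 vary widely between libraries of 6 and of 12 months.

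Locus 29269 (GRCz11 chromosome 8, 44279058 to 44351634, minus strand) had the highest mean level of all called genes, with 106, 51.3 and 219 FPKM at 36 months, against 1134, 384 and 648 FPKM at 24 months (log2 difference -2.62 ± 0.54, adjusted p = 0.0425). All 3 libraries of 36 months were under 220 FPKM and all of 24 months above 380. Locus 29271 (chromosome 8, 44346799 to 44351675, plus strand), which overlaps its end on the other strand, had 0, 0 and 0 FPKM at 36 months, against 28.7, 11 and 20.0 FPKM at 24 months (adjusted p = 6.06e-04), from 0 reads at 36 months against 173, 75 and 95 at 24. Locus 29271 entered the test through its level at 24 months alone. Calls ended for locus 29269 without 36-month replicate 1 or 2, 24-month replicate 1, 2 or 3, 12-month replicate 1, 2 or 3 or 6-month replicate 3 (adjusted p up to 0.153).

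Some called genes lay near each other. Within 50 kb, 31 pairs of called genes were found, 25 with at least 1 locus without a name, and in 3 pairs the genes overlap and may share reads. The direction was the same in 25 of the pairs (80.6%), against 55.5% of the 22483 pairs of all genes tested within that distance. Of the called genes 16.5% had another called gene within it, and of the 15886 genes not called 3.44% had one. The 31 pairs are not independent, since many come from the same stretches of chromosomes 3 and 22. In some pairs, such as loci 15684 and 15685 or 19560 and 19562, both members entered the test through 36 months alone. Such members could be called only as higher, so their shared direction restates the filter and raises the share of 80.6%. Loci 552 and 553, which both entered the test through 36 months alone, lay 453 bases apart. Whether such neighbours are 1 transcript was not tested. Most of the 22483 pairs hold genes not called, so the shares are not alike. On chromosome 22, cdkn1a and apobec2a, a cytidine deaminase gene of muscle, both fell, and loci 15684 and 15685 between them rose. Locus 15685 (chromosome 22, 593555 to 596306) had 15.5, 20.8 and 19.4 FPKM at 36 months, against 0.407, 0.261 and 0.516 FPKM at 24 months (log2 difference 3.80 ± 0.21, adjusted p = 1.00e-05). Locus 15684 had 2.01, 9.06 and 8.95 FPKM at 36 months, against 0.376, 0 and 0 FPKM at 24 months. Both loci entered the test through their level at 36 months alone. On chromosome 3, CCDC134, dicp1.1 and loci 19553, 19560 and 19562 lay within the same stretch and all rose, by 1.42, 2.11, 2.34, 1.99 and 2.16 on the log2 scale. Since locus 19562 lies inside dicp1.1, these 2 may share reads. Means were 4.51, 8.14, 3.79 and 11.6 FPKM for CCDC134 at 6, 12, 24 and 36 months. For dicp1.1 they were 2.75, 4.15, 0.668 and 5.83 FPKM, so both were lowest at 24 months. Locus 19560 had 7.48, 4.98 and 5.3 FPKM at 12 months, against 7.9, 4.82 and 5.4 FPKM at 36 months.

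The noncoding genes gave 3 calls of 352 tested (0.852%), 2 higher and 1 lower. The transcript CU459094.3 had 23.5, 7.16 and 22 FPKM at 36 months, against 1.09, 1.31 and 2.13 FPKM at 24 months (log2 difference 2.75 ± 0.46, adjusted p = 0.0205), and CT737162.2 had 3.99, 5.93 and 6.59 FPKM at 36 months, against 1.47, 0 and 0.385 FPKM at 24 months (log2 difference 2.09 ± 0.40, adjusted p = 0.0344). The transcript CU019627.1, overlapped by a locus without a name, had 1.4, 2.61 and 1.84 FPKM at 36 months, against 6.02, 5.73 and 5.93 FPKM at 24 months (log2 difference -1.24 ± 0.20, adjusted p = 0.0166). Both ages were apart for all 3. Calls ended for CU459094.3 without 36-month replicate 1 or 3 or 24-month replicate 1 or 2 (adjusted p up to 0.0801), for CT737162.2 without 36-month replicate 1, 2 or 3, 24-month replicate 2 or 3 or 12-month replicate 1 (adjusted p up to 0.112) and for CU019627.1 without 36-month replicate 1 or 3 or 24-month replicate 1, 2 or 3 (adjusted p up to 0.0696).

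The step from 24 to 36 months was also tested against the first step, from 6 to 12 months, which shares no library with it. The 2 steps differed for 13 genes of 16129 (0.0806%) by limma's adjusted p, and for 1805 at an unadjusted p under 0.05. In 10 of the 13 the last step was the more positive. All 13 were also called between 36 and 24 months, and 11 were loci without a name. Each of these loci had a mean under 1 FPKM at 24 or 36 months and passed the filter through the other age. Their direction and that overlap thus largely restate the filter and the shared libraries. For per3 the last step exceeded the first by 1.95 ± 0.25, adjusted p = 0.0189. Its means were 11.6, 9.69, 3.33 and 13.3 FPKM at 6, 12, 24 and 36 months. For cacng8b the last step was lower, by a difference of -2.11 ± 0.31, adjusted p = 0.0322, with 3.61, 5.25, 6.17 and 1.19 FPKM at 6, 12, 24 and 36 months. Among the loci, 12075 differed by 3.59 ± 0.26, adjusted p = 2.48e-04, and 15685 by 4.22 ± 0.29, adjusted p = 2.48e-04. On the lower side, 29271 differed by -4.21 ± 0.55, adjusted p = 0.0191. The values of 12075 and 29271 depend on the pseudocount, since both are at 0 at an age. With loci without a name left out, 0 genes were called, and by voom on the recovered reads also 0.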

How the data were processed

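Total RNA of hearts was extracted with Trizol and sequenced on an Illumina HiSeq instrument, per the labels. Bases were called with CASAVA 1.8 and reads aligned with HISAT2 2.0.5 to GRCz11, per the submitters' processing notes. The counting tool, the annotation and how unnamed loci were assembled are not given in the sources used here. The authors deposited FPKM per gene and library, of which the 12 libraries were used and 0 other columns held samples. Unnamed loci made up 15524 of the 50640 genes. FPKM times length gave whole reads within 0.01 read in 100% of values, so the alternative with voom used those reads, on which 147 genes were called.

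Values were taken as log2(FPKM + 1), for genes with a mean of at least 1 FPKM over the 6 libraries compared. A model with 4 age means over the 12 libraries (8 residual degrees of freedom) was fitted in limma 3.58.1 (R 4.3.3) with a trend. P-values are two-sided, with Benjamini-Hochberg adjustment across the 16129 genes. Groups come from the labelled age. The procedure was tested on simulated data. Replicate numbers were not used as pairs. Alternatives covered the pseudocount, filters, scaling, weights, a replicate block, voom, the libraries fitted and each library left out.

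Named genes were the 15 largest rises and falls among called protein-coding genes with a symbol and values that do not overlap between the ages. Added to these were the 5 called genes of highest level, up to 3 noncoding genes each way and up to 4 called members per list. Where no member of a list was called, up to 2 others were taken. For the difference between steps, up to 5 genes each way were taken. Not all genes given by this rule are described in the text, among them many of these 2 others. Defining markers of the tissue and of other cell types, and called genes kept without each library, are also named. The members and the 50 gene lists were chosen with earlier results of these data known.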

Additional observations from a re-analysis of the deposited data

Results flagged for a closer look

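The change from 24 to 36 months differed from the change from 6 to 12 months for 13 genes (limma, adjusted p under 0.05), in 10 towards a more positive last step. The 11 unnamed loci among them passed the filter on low values through 36 or 24 months alone, so this direction largely restates the filter. For per3 the difference between the steps was 1.95 on the log2 scale, and for cacng8b -2.11. The other named differences were those of loci without a name. Locus 15685 differed by 4.22 and locus 12075 by 3.59 in the positive direction. Locus 29271 differed by -4.21 and locus 4496 by -2.17 in the negative one. With each library left out in turn, the number of such genes ran from 2 to 26.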

How the results depend on the processing

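Between 36 and 24 months 243 genes were called. The total was 127 with a minimum of 5 FPKM (114 of them among the 243), 147 by voom (128), 104 without unnamed loci (103), 481 with array weights (242) and 390 without the 6-month libraries (221). Leaving out each library gave 56 to 472, lowest without 24-month replicate 1 (56), 2 (67) and 3 (93), and between 100 and 121 without a 36-month one. Without 12-month replicate 1 or 2 the count was 143 or 159, and without 6-month replicate 1 it was 472. With 0.1 as pseudocount 169 were called, with no filter 191, and with other scalings 250 to 337. The 6 libraries alone gave 331, of which 159 were among the 243.

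The labels do not say whether replicate numbers pair the samples, and correlations among 3 libraries per age cannot settle it. The correlation of deviations was -0.153 to 0.102 over 18 same-numbered pairs, with 1 over 0.1, and 0.023 to 0.0702 over the 3 pairs of 36 and 24 months. Between differently numbered libraries of 36 and 24 months it was -0.0555 to -0.00264. With a replicate block 88 genes were called, and with a replicate block in the 6 libraries alone, a fit chosen after seeing the data, 2. For the difference between steps the replicate block gave 2 genes.

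That difference, 13 genes as reported, was called for 3 with a pseudocount of 0.1, 23 with no filter, 3 with a minimum of 5 FPKM, 29 without a trend, 63 with array weights, and 0 by voom or without unnamed loci. Leaving out single libraries gave 2 (without 12-month replicate 2) to 26 (without 12-month replicate 3), with 5 without 6-month replicate 3 or 36-month replicate 2, and 21 without 36-month replicate 1. The cause of these shifts was not tested, beyond the smaller number of genes or samples in some.

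Of 68 named calls, 25 ended with no filter, 21 by voom, 21 in the 6 libraries alone, 18 with a pseudocount of 0.1, 37 with a replicate block and 0 to 46 with a library left out. None of the 68 turned its direction under these alternatives. In the 6 libraries compared, 1 read on a gene of 1 kb stood for 0.0899 to 0.136 FPKM, which limits genes near 1 FPKM.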

Other observations

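Called genes in neighbouring positions were also found beyond those described. On chromosome 11, the noncoding CU459094.3, locus 3219 and si:ch73-106k19.5 all rose and lay within 50 kb of each other. In all, 40 called genes lay within 50 kb of another, and 6 of the 31 pairs held no locus without a name.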
